A study of Mus musculus with 12 samples.

Results

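The iron-handling genes described here are Hamp, Slc40a1, Tfrc, Tfr2, Trf, Fth1, Slc11a1, Slc11a2, Hfe and Cp, which together cover uptake, storage, export and hormonal control of iron. Members were all probe sets on the array whose annotation names exactly 1 of these genes. Of 22626 probe sets in all, 24 met the rule, and they stood for 9 of the 10 genes, among 12393 genes on the array with such a probe set. The only probe set annotated to Trf, transferrin, is shared with a neighbouring symbol and was not analysed here.

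The cells came from livers of 12-week-old male C57BL/6N mice, with no genetic alteration named in the labels. The mice took phenobarbital at 50 mg/kg in drinking water for 14 days, or tap water alone as the vehicle. Hepatocytes and a fraction labelled mesenchymal cells were isolated, and 3 arrays were made for each of the 4 combinations of population and treatment. The drug, a barbiturate, switches on the nuclear receptor CAR in hepatocytes. The labels do not say whether the 3 samples of a group are separate mice, so p-values measure the spread between samples only.

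Liver is both the main iron store of the body and the source of the hormone that governs it. Hepatocytes secrete hepcidin, encoded by Hamp, which binds ferroportin, the only known cellular iron exporter, encoded by Slc40a1, and causes its degradation. Hepcidin transcription is driven by bone morphogenetic proteins from sinusoidal endothelium acting through SMAD factors, and by interleukin 6 acting through STAT3. Kupffer cells, the macrophages of liver, take up old red cells, break down their haem and return the iron to plasma through ferroportin.

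Values are deposited log2 expression from RMA, and all differences are on that scale. They ran from 2.79 to 15.2 over the whole table. Levels of different probe sets were not compared with one another, since probes bind with different strength. A probe set was tested if it exceeded the 40th percentile of its array, between 6.54 and 6.68, on at least 3 arrays. It was called at a Benjamini-Hochberg adjusted p under 0.05 over all probe sets in limma. The deposited arrays do not share a distribution: medians ran from 7.19 to 7.21 in hepatocytes and from 7.40 to 7.44 in mesenchymal cells. Small differences between the populations are read against that shift of 0.23.

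The mesenchymal fraction carried the markers of macrophages and endothelium. Kupffer cell markers averaged 13.68 to 14.13 on its arrays against 6.06 to 6.66 on hepatocyte arrays, and sinusoidal endothelial markers averaged 12.21 to 12.75 on its arrays. Stellate cell and fibroblast markers averaged 7.72 to 8.39 there. Hepatocyte markers averaged 8.92 to 10.91 in the fraction and 13.75 to 13.92 in hepatocytes. In such bulk samples a lower level from fewer cells of a type and from less RNA per cell cannot be told apart.

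The vehicle samples numbered 1 stood apart from the rest in both populations. The clock gene Dbp lay at 6.21 on vehicle hepatocyte array 1 and at 6.52 on vehicle mesenchymal array 1, against 11.60 to 12.15 on the other 10 arrays. Member probe sets on hepatocyte array 1 lay outside the range of the other 5 hepatocyte arrays in 70.8% of cases, 12 above and 5 below, against 41.9% of all probe sets. On mesenchymal array 1 the share was also 70.8%, 11 above and 6 below, against 47.8% of all probe sets. Many of these probe sets are repeated readings of a gene, so the member shares do not count genes. With 1 probe set per gene, Hamp, Slc40a1, Tfrc, Hfe and Cp lay outside in hepatocytes, and Tfr2, Fth1, Slc11a1 and Slc11a2 within. In mesenchymal cells Hfe and Cp lay within and the other genes outside. Treatment differences that moved by over 1.5 times without these arrays are given both ways for the members the text turns on.

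**Figure D1:**
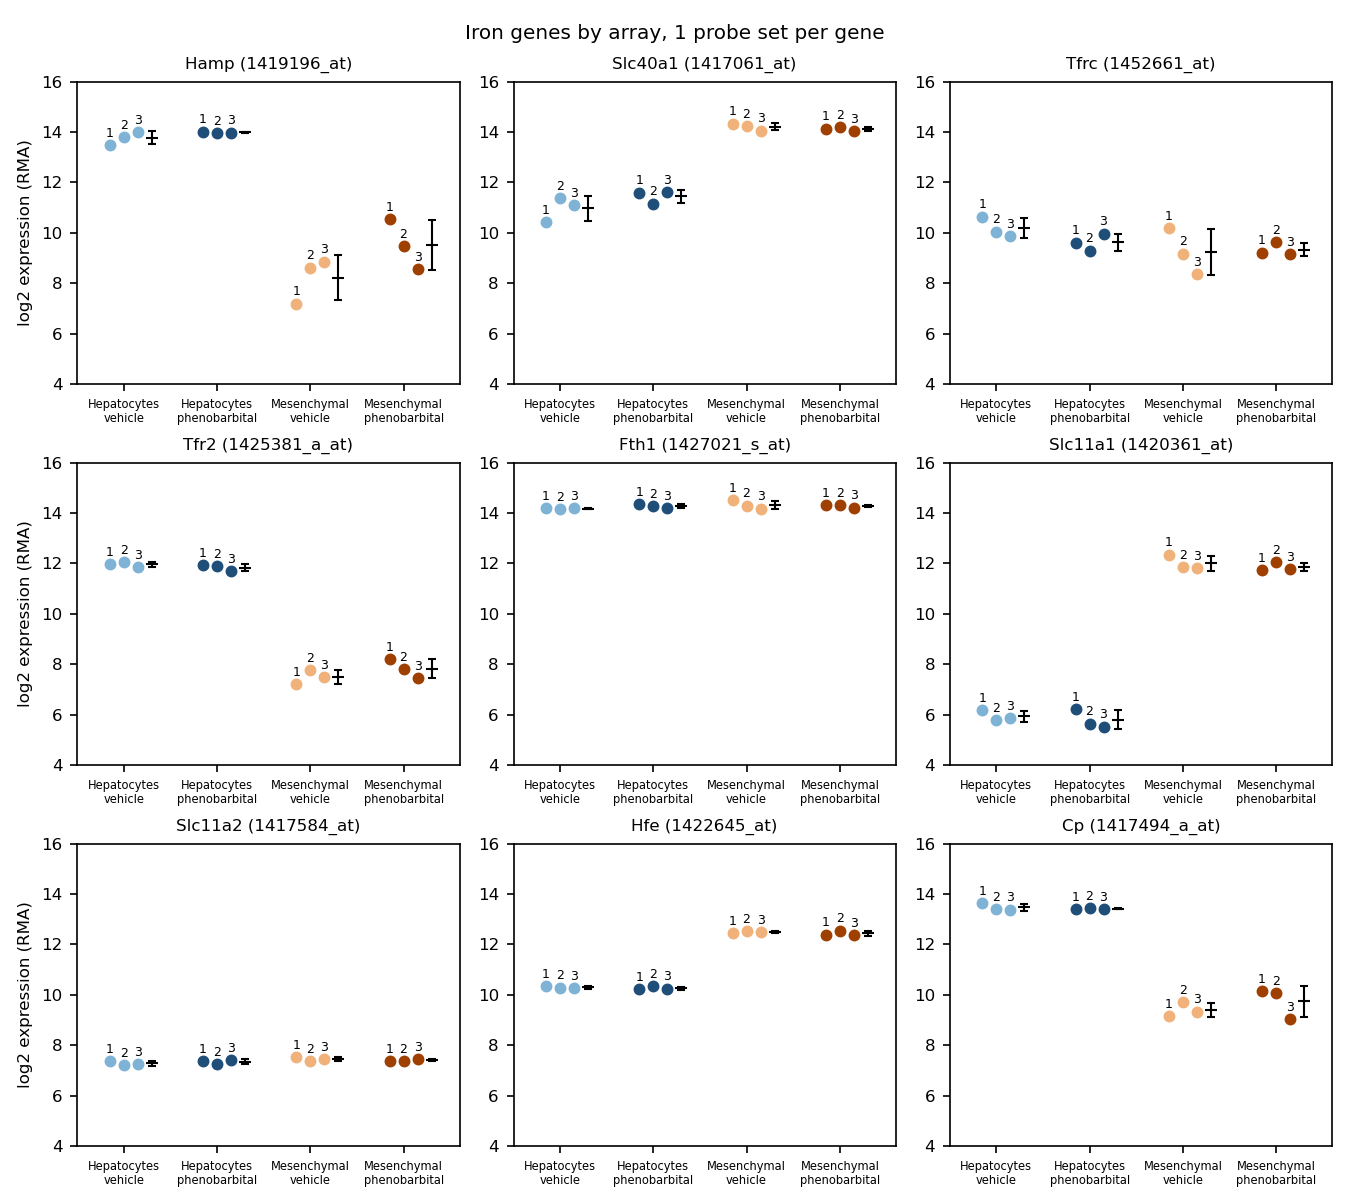
Log2 expression of the member genes on each of the 12 arrays, with 1 probe set per gene and each point 1 array; horizontal marks are group means. Hamp, Tfr2 and Cp were high in hepatocytes, Slc40a1, Slc11a1 and Hfe were high in mesenchymal cells, and the groups of Tfrc, Fth1 and Slc11a2 lay closer together, with Tfrc called lower in mesenchymal cells of vehicle mice.

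Most member probe sets differed between the populations, as did most of the array. In vehicle mice 5 of 21 tested member probe sets were higher in mesenchymal cells, where 43.2% of all tested probe sets were higher. A further 12 were lower, where 38.9% of all were lower. In phenobarbital mice 5 of 21 were higher against 43.4% of all, and 10 were lower against 39.2%. The median member difference, mesenchymal minus hepatocyte, was -0.95 in vehicle mice and -0.40 in phenobarbital mice, against 0.06 and 0.07 over all tested probe sets. Several genes have more than 1 probe set, and these are repeated readings of a gene: Cp alone gave 5 of the lower ones. With 1 probe set per gene, 3 of 9 genes were higher and 4 lower in vehicle mice, 3 and 3 in phenobarbital mice, and the medians were 0.15 and 0.01. The split over all probe sets also depended on scaling: with arrays centred on their medians 36.5% were higher and 46.4% lower in vehicle mice, with a median of -0.15, and after a further quantile normalization 39.2% and 43.9%, with a median of -0.08.

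Hamp, the hepcidin gene, was far higher in hepatocytes than in mesenchymal cells under both treatments. On probe set 1419196_at the vehicle hepatocyte arrays read 13.49, 13.80 and 14.00, and the phenobarbital hepatocyte arrays 14.02, 13.96 and 13.97. The mesenchymal arrays read 7.21, 8.63 and 8.86 with vehicle and 10.54, 9.47 and 8.58 with phenobarbital. The hepatocyte arrays were all high and close together, and the mesenchymal arrays were low and spread over more than 3 log2 units. In vehicle mice Hamp was 46.3-fold lower in mesenchymal cells (difference -5.53, SE 0.47, limma adjusted p = 3.82e-07). In phenobarbital mice it was 21.9-fold lower (-4.45, SE 0.47, limma adjusted p = 2.71e-06). The second probe set, 1419197_x_at, gave -5.42 and -4.54. Without both vehicle samples numbered 1, the vehicle difference on 1419196_at was -5.16 (limma adjusted p = 3.41e-06).

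Mouse carries a near-identical neighbour, Hamp2, and a probe set of either gene may take signal from both. The probe set standing for Hamp2 read 11.35, 11.80 and 12.06 in vehicle hepatocytes and 13.07, 12.85 and 11.97 with phenobarbital. It read between 6.87 and 8.76 on the mesenchymal arrays. Both probe sets thus read high in hepatocytes. How much of the Hamp2 reading is signal from Hamp cannot be told, so a high level of Hamp2 itself is not shown.

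The stretches just before the annotated starts of Hamp and Hamp2 are shown because Hamp was among the members with the widest gap between the populations and the stretches hold letters known as targets of BMP and interleukin 6 signals, one kind in Hamp only. Both are 140 bases long and come from RefSeq on GRCm38.p6, minus strand, chr7:30944030-30944169 for Hamp and chr7:30924182-30924321 for Hamp2. Capitals mark GGCGCC, the core of the BMP-responsive element, and TTCTTGGAA, the STAT3 site.
Hamp: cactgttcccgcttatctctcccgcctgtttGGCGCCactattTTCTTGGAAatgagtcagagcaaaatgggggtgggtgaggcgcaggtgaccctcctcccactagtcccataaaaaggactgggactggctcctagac
Hamp2: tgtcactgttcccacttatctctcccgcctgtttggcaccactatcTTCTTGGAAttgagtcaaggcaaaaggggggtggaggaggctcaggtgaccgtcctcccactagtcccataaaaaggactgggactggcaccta
Aligned end to end, the windows shared 125 bases, with 12 mismatches and 6 gap bases, an identity of 87.4%. GGCGCC began 109 bases before the Hamp start and did not occur in the 250 bases before the Hamp2 start. TTCTTGGAA began 97 bases before the Hamp start and 94 before the Hamp2 start. Over 250 bases upstream on both strands, GGCGCC occurred in 9.59% and TTCTTGGAA in 0.365% of 32851 promoter entries. The table matched 7 of the 10 members with 12 entries, and of these only an entry of Hamp held TTCTTGGAA, while Hamp and Tfrc held GGCGCC. A match of letters is a description and not evidence of a bound site.

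Tfr2 encodes the second transferrin receptor, which hepatocytes use to sense transferrin iron. Its probe set 1425381_a_at read 11.97, 12.06 and 11.85 in vehicle hepatocytes and 11.93, 11.88 and 11.69 with phenobarbital. Mesenchymal arrays read 7.21, 7.78 and 7.48 with vehicle and 8.21, 7.82 and 7.45 with phenobarbital. The populations did not overlap, and Tfr2 was 22.2-fold lower in vehicle mesenchymal cells (-4.47, SE 0.18, limma adjusted p = 6.83e-10). In phenobarbital mice the difference was -4.00. Probe set 1459994_x_at gave wider differences of -5.95 and -4.76. Only 2 of the 3 mesenchymal arrays of each treatment exceeded the filter percentile on it, so these sizes are not exact.

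Cp encodes ceruloplasmin, a plasma ferroxidase that helps load exported iron onto transferrin. Its probe set 1417494_a_at read 13.63, 13.39 and 13.38 in vehicle hepatocytes and 13.41, 13.44 and 13.40 with phenobarbital. Mesenchymal arrays read 9.17, 9.73 and 9.34 with vehicle and 10.15, 10.07 and 9.05 with phenobarbital. Cp was 16.6-fold lower in vehicle mesenchymal cells (-4.06, SE 0.24, limma adjusted p = 1.75e-08). All 5 tested Cp probe sets were lower, by differences of -4.64 to -3.64 in vehicle mice and -4.10 to -3.64 in phenobarbital mice. The remaining Cp probe sets, 1448735_at and 1417497_at, read 4.89 to 6.68 and 5.09 to 5.82 and were too low to test.

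Slc40a1, the exporter ferroportin, ran the other way. On probe set 1417061_at vehicle hepatocytes read 10.43, 11.39 and 11.11 and phenobarbital hepatocytes 11.60, 11.16 and 11.62. Mesenchymal cells read 14.33, 14.23 and 14.05 with vehicle and 14.13, 14.19 and 14.04 with phenobarbital. Every mesenchymal array lay above every hepatocyte array, and ferroportin was 9.36-fold higher there in vehicle mice (3.23, SE 0.20, limma adjusted p = 2.77e-08). The second probe set, 1448566_at, gave 16.4-fold (4.04, SE 0.19, limma adjusted p = 1.87e-09). Without both vehicle samples numbered 1, which moved hepatocytes most, the vehicle differences were 2.89 and 3.71. In phenobarbital mice they were 2.66 and 3.45. The levels in mesenchymal cells lay close to the upper end of the scale, where arrays compress differences.

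Slc11a1 encodes the phagosomal metal transporter NRAMP1 of macrophages. Its only probe set, 1420361_at, read 6.18, 5.78 and 5.87 in vehicle hepatocytes and 6.24, 5.66 and 5.54 with phenobarbital. None of these exceeded the 40th percentile of its array. Mesenchymal arrays read 12.35, 11.85 and 11.81 with vehicle and 11.74, 12.06 and 11.78 with phenobarbital. Slc11a1 was higher in mesenchymal cells in both treatments (limma adjusted p = 1.39e-10 and 1.54e-10). The probe set passed the filter only through the mesenchymal arrays, so these p-values add no support beyond the readings. Taking the hepatocyte arrays at their 40th percentile, the gap was at least 43.4-fold in vehicle mice and at least 38.8-fold in phenobarbital mice. The measured group means were 5.94 and 12.00 in vehicle mice.

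Hfe encodes the haemochromatosis protein, an MHC class I-like partner of the transferrin receptors that promotes hepcidin expression. Probe set 1422645_at read 10.36, 10.29 and 10.26 in vehicle hepatocytes and 10.23, 10.34 and 10.24 with phenobarbital. Mesenchymal arrays read 12.45, 12.52 and 12.50 with vehicle and 12.39, 12.55 and 12.37 with phenobarbital. Hfe was 4.56-fold higher in vehicle mesenchymal cells (2.19, SE 0.07, limma adjusted p = 8.49e-11) and 4.49-fold higher in phenobarbital mice. Probe set 1450702_at gave 1.82 and 1.97.

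**Figure D2:**
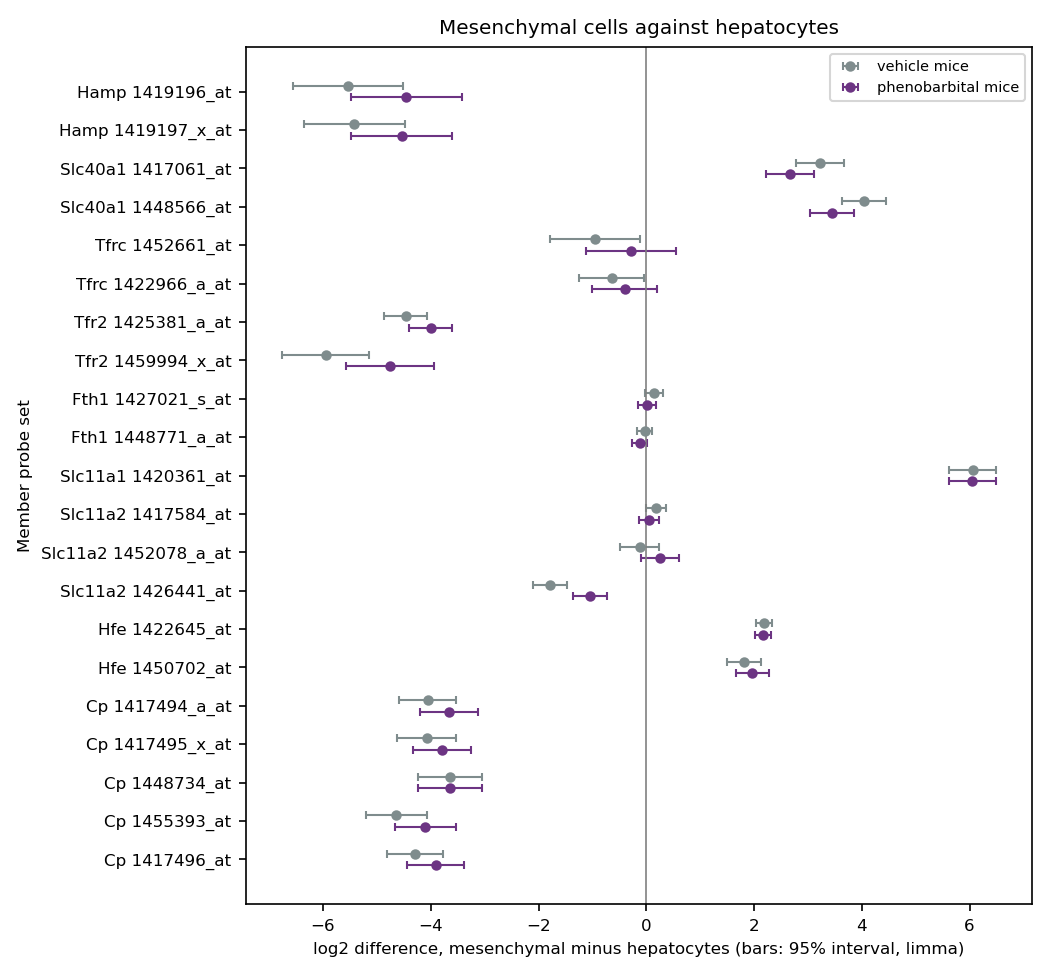
Difference in log2 expression, mesenchymal minus hepatocyte, for each tested member probe set in vehicle and in phenobarbital mice, with 95% confidence intervals from limma. Slc11a1, Slc40a1 and Hfe lie above 0, Hamp, Tfr2 and Cp lie far below it, and Fth1 lies near it. Slc11a1 and Slc11a2 on 1426441_at are drawn at measured differences, though 1 of the populations lies under the filter percentile on all arrays.

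Fth1 encodes the heavy chain of ferritin, the iron storage shell with ferroxidase activity. Probe set 1427021_s_at read 14.19, 14.16 and 14.18 in vehicle hepatocytes and 14.34, 14.28 and 14.19 with phenobarbital. It read 14.50, 14.29 and 14.17 in vehicle mesenchymal cells and 14.31, 14.31 and 14.22 with phenobarbital. All 12 arrays lay within a narrow band near the top of the scale. The vehicle difference between the populations was 0.15 (95% interval -0.02 to 0.31, limma adjusted p = 0.0876), and the second probe set gave -0.03 (-0.17 to 0.11, limma adjusted p = 0.64). The sign of so small a difference depended on scaling: with each array centred on its median, both probe sets were lower in mesenchymal cells of phenobarbital mice (-0.22 and -0.36, limma adjusted p = 0.0173 and 0.000309), and 1448771_a_at was also lower in vehicle mice (-0.25, limma adjusted p = 0.00398). After a further quantile normalization 1427021_s_at was instead higher in vehicle mesenchymal cells (0.26, limma adjusted p = 0.00637). It was also called higher without vehicle mesenchymal array 3 (0.22, limma adjusted p = 0.0156). Ferritin is regulated largely at translation by iron regulatory proteins, which these RNA levels do not read.

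Tfrc encodes transferrin receptor 1, which imports transferrin-bound iron and is abundant in dividing and haemoglobin-making cells. Probe set 1452661_at read 10.65, 10.05 and 9.88 in vehicle hepatocytes and 9.62, 9.29 and 9.97 with phenobarbital. It read 10.20, 9.18 and 8.36 in vehicle mesenchymal cells and 9.22, 9.64 and 9.16 with phenobarbital. The groups overlapped in both treatments, and array 1 was the highest vehicle array in each population. In vehicle mice Tfrc was lower in mesenchymal cells (-0.95, SE 0.38, limma adjusted p = 0.0359), and 1422966_a_at gave -0.64 (SE 0.27, limma adjusted p = 0.0464). The call for both probe sets was lost when any of vehicle hepatocyte array 1, vehicle hepatocyte array 2, vehicle mesenchymal array 2 or vehicle mesenchymal array 3 was left out, with -0.51 for 1452661_at without the last (limma adjusted p = 0.166). It was also lost in a fit on the 6 vehicle arrays alone (limma adjusted p = 0.0842 and 0.0803). It held without both samples numbered 1, at -1.20 and -0.75 (limma adjusted p = 0.00311 and 0.0183). In phenobarbital mice the differences were -0.29 and -0.40, not called, though the second reached -0.64 (limma adjusted p = 0.048) with arrays centred on the median. Probe set 1422967_a_at read 4.71 to 5.82 and was too low to test.

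Markers of dividing cells differed between the same populations, and those of erythroid cells went both ways. The 6 of 7 proliferation markers measured averaged 5.40 to 5.78 on hepatocyte arrays, where 5 lay under the 40th percentile throughout, and 7.70 to 8.74 on mesenchymal arrays. The 6 of 11 erythroid markers measured averaged 7.10 to 7.38 in hepatocytes and 6.08 to 6.17 in mesenchymal cells, with 3 and 4 of them under that percentile on every array of a group. Of the 3 erythroid markers tested, Alas2 and Klf1 were lower and Epor higher in vehicle mesenchymal cells, with differences from -4.04 to 0.74. The part of dividing and erythroid cells in the Tfrc values was not tested.

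Slc11a2 encodes the divalent metal transporter DMT1, which carries iron out of endosomes, and its 3 probe sets did not give a single picture. Probe set 1426441_at read 8.46, 7.98 and 7.91 in vehicle hepatocytes and 7.50, 7.61 and 7.45 with phenobarbital. It read 6.50, 6.18 and 6.32 in vehicle mesenchymal cells and 6.57, 6.34 and 6.52 with phenobarbital, below the 40th percentile on every mesenchymal array. On this probe set Slc11a2 was lower in mesenchymal cells of vehicle mice (limma adjusted p = 2.48e-07) and of phenobarbital mice (limma adjusted p = 2.83e-05). The probe set passed the filter only through the hepatocyte arrays, so these p-values add no support beyond the readings. Taking the mesenchymal arrays at their 40th percentile, it was at least 2.75-fold and at least 1.81-fold lower. Probe set 1417584_at read 7.22 to 7.55 and 1452078_a_at 6.97 to 7.91 over the 12 arrays. Their vehicle differences were 0.18 (limma adjusted p = 0.0676) and -0.12 (limma adjusted p = 0.493), and the first turned to -0.04 under either other scaling and was called at 0.23 without vehicle hepatocyte array 1 (limma adjusted p = 0.0384). The gene makes several transcripts, and the annotation used does not say which of them each probe set reads.

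Hepatocyte RNA was measurable in the mesenchymal fraction, and the low Hamp, Tfr2 and Cp readings there can be set against it. Expressed as a share of the hepatocyte mean of the same treatment, the median of 14 hepatocyte markers was 2.44, 5.81 and 4.68% on the vehicle mesenchymal arrays and 10.4, 5.12 and 4.06% on the phenobarbital arrays. Hamp stood at 1.06, 2.85 and 3.33% and then 9.20, 4.37 and 2.36% on the same arrays. Tfr2 on 1425381_a_at stood at 3.72, 5.51 and 4.49% and then 8.12, 6.20 and 4.80%, and on 1459994_x_at lower, at 0.921, 2.39 and 1.91% and then 5.51, 4.56 and 1.99%. The latter lay below the marker median on every array and the former above it on 3. Cp stood at 5.08, 7.47 and 5.72% and then 10.4, 9.84 and 4.83%. Phenobarbital mesenchymal array 1 was highest for all of these, and vehicle mesenchymal array 1 was lowest for the markers, Hamp and Tfr2. Single markers spread widely, from 1.08 to 32.2% on vehicle mesenchymal array 1 and from 5.53 to 79.8% on phenobarbital mesenchymal array 1. A place above or below the marker median is therefore only a rough comparison. The part of hepatocyte RNA in the Hamp, Tfr2 and Cp levels was not tested.

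**Figure D3:**
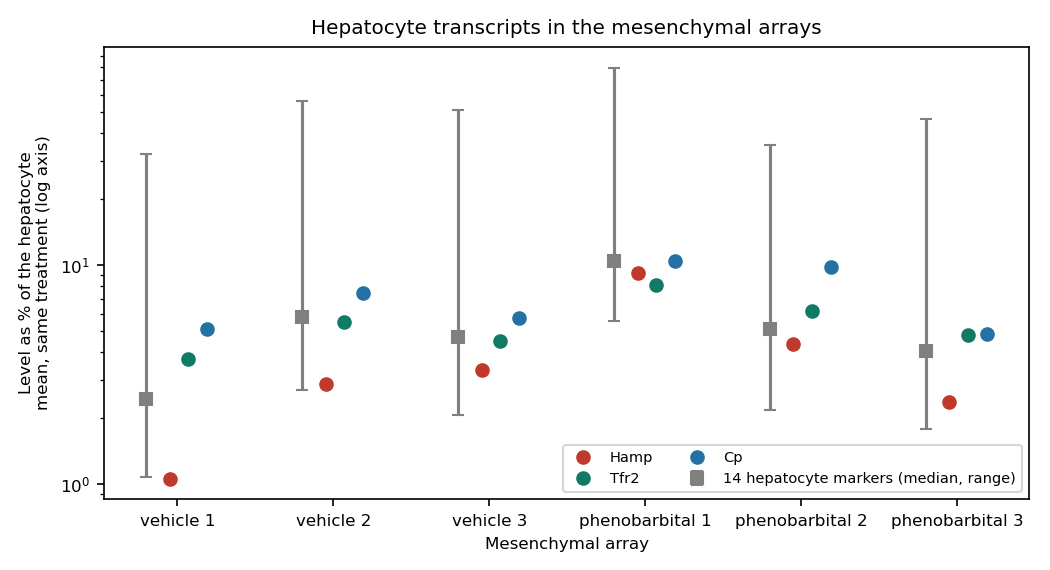
Level on each mesenchymal array as a percentage of the hepatocyte mean of the same treatment, for Hamp, Tfr2 and Cp and for the median of 14 hepatocyte markers. All are highest on phenobarbital array 1, where the marker median is 10.4%.

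In the other direction, macrophage markers were scarce in the hepatocyte samples. The median of 11 Kupffer cell markers on a hepatocyte array was 0.429 to 0.587% of the mesenchymal mean, and the highest single marker reached 3.73%. Slc11a1 stood at 1.25 to 2.03%, inside the range of those markers. All its hepatocyte readings lay under the filter percentile. So did those of 5 of the 11 markers on every vehicle hepatocyte array and of 6 on every phenobarbital one. Shares this low are not exact, and no likeness is read from them. Slc40a1 stood at 7.31 to 17.7% on 1417061_at and 4.25 to 9.96% on 1448566_at. Hfe stood at 21.3 to 23.4% on 1422645_at and 23.6 to 33.8% on 1450702_at. Both genes lay above every one of those markers on all 6 hepatocyte arrays.

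The question of the treatment comparison was whether phenobarbital altered these genes within each population. In hepatocytes none of the 20 tested member probe sets was called, where 0.0584% of all tested probe sets were: 8 of 13705, belonging to Cyp2b10, Cyp2c29, Cyp2c55, Hmgcs1 and Fdft1. At an unadjusted p under 0.05 there were 6 of 20 members, or 30%, against 8.03% of all. The groups did not overlap for 5 members, or 25%, against 14.8% of all. The median member difference, phenobarbital minus vehicle, was -0.11 against a median of all probe sets that rounds to 0.00. These members include several probe sets of the same gene. With 1 probe set per gene, 1 of 8 had an unadjusted p under 0.05, 0 of 8 were free of overlap, and the median was 0.02.

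The smallest p among the members belonged to Slc11a2. On 1426441_at all 3 phenobarbital hepatocyte arrays lay below all 3 vehicle arrays (-0.60, SE 0.15, 95% interval -0.95 to -0.25, limma adjusted p = 0.453). On 1452078_a_at vehicle hepatocytes read 7.91, 7.29 and 7.46 and phenobarbital hepatocytes 7.23, 6.97 and 7.11, again without overlap (-0.45, SE 0.17, limma adjusted p = 0.592). The third probe set, 1417584_at, gave 0.07 (SE 0.10). Without vehicle hepatocyte array 1, the highest of its group on both, the differences were -0.43 and -0.27.

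For Slc40a1 the hepatocyte differences were 0.48 (SE 0.24, limma adjusted p = 0.653) and 0.52 (SE 0.22, limma adjusted p = 0.614). Both depended on vehicle hepatocyte array 1, the lowest of the 6, and were 0.21 and 0.26 without it. For Tfrc, where the same array was the highest, the differences were -0.56 (SE 0.23, limma adjusted p = 0.614) and -0.26, and without it -0.34 and -0.08.

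Hamp differed by 0.22 (95% interval -0.05 to 0.49, limma adjusted p = 0.669) on 1419196_at and by 0.33 (0.03 to 0.63, limma adjusted p = 0.606) on 1419197_x_at, whose groups did not overlap. Without vehicle hepatocyte array 1, the lowest on both, the values were 0.08 and 0.18. The level lies near the top of the scale, and a change there may be understated. Acute phase genes, many of which share the interleukin 6 route with Hamp, averaged 12.79 to 13.34 on vehicle and 11.91 to 12.89 on phenobarbital hepatocyte arrays, and their part in the Hamp values was not tested.

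The differences for the remaining genes in hepatocytes were small. Tfr2 gave -0.13 and -0.18, the latter without overlap between the groups (limma adjusted p = 0.592). Fth1 gave 0.09 and 0.08, Hfe -0.03 and -0.28, and the 5 Cp probe sets -0.20 to -0.05. The intervals bound most of these within modest sizes: for Cp on 1417494_a_at it ran from -0.23 to 0.13, and for Hfe on 1422645_at from -0.20 to 0.14. Without vehicle hepatocyte array 1, Hfe gave 0.00 and -0.15 and the 5 Cp probe sets -0.08 to 0.03.

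In mesenchymal cells 0 of 20 tested members were called in limma, as were 0% of all 13642 tested probe sets. No member had an unadjusted p under 0.05, where 404 of all did, and no member's groups were free of overlap, where 7.65% of all were. Hamp gave the widest difference, 1.30 (95% interval -0.12 to 2.71, limma adjusted p = 0.999), and Tfr2 gave 0.34 and 1.01. The Hamp difference was 0.79 without phenobarbital array 1 and 0.78 without vehicle array 1, the arrays with the highest and the lowest hepatocyte marker share. Tfr2 gave 0.15 and 0.72 without the former and 0.20 and 0.60 without the latter. Tfrc on 1452661_at gave 0.10 with all arrays and 0.57 without vehicle array 1. The abundant mesenchymal transcripts were bounded more tightly, with Slc40a1 at -0.09 (-0.28 to 0.11), Slc11a1 at -0.14 (-0.53 to 0.25) and Hfe at -0.05 (-0.22 to 0.11). Without vehicle mesenchymal array 1 Slc40a1 gave -0.02 and Slc11a1 0.03. The 7 of 8 neutrophil markers measured averaged 8.66 on phenobarbital mesenchymal array 2 and 6.21 to 7.34 on the other mesenchymal arrays. Slc11a1, which neutrophils also express, read 12.06 on phenobarbital mesenchymal array 2. It was highest, at 12.35, on vehicle mesenchymal array 1, where those markers averaged 7.34. The part of neutrophils in the Slc11a1 values was not tested.

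**Figure D4:**
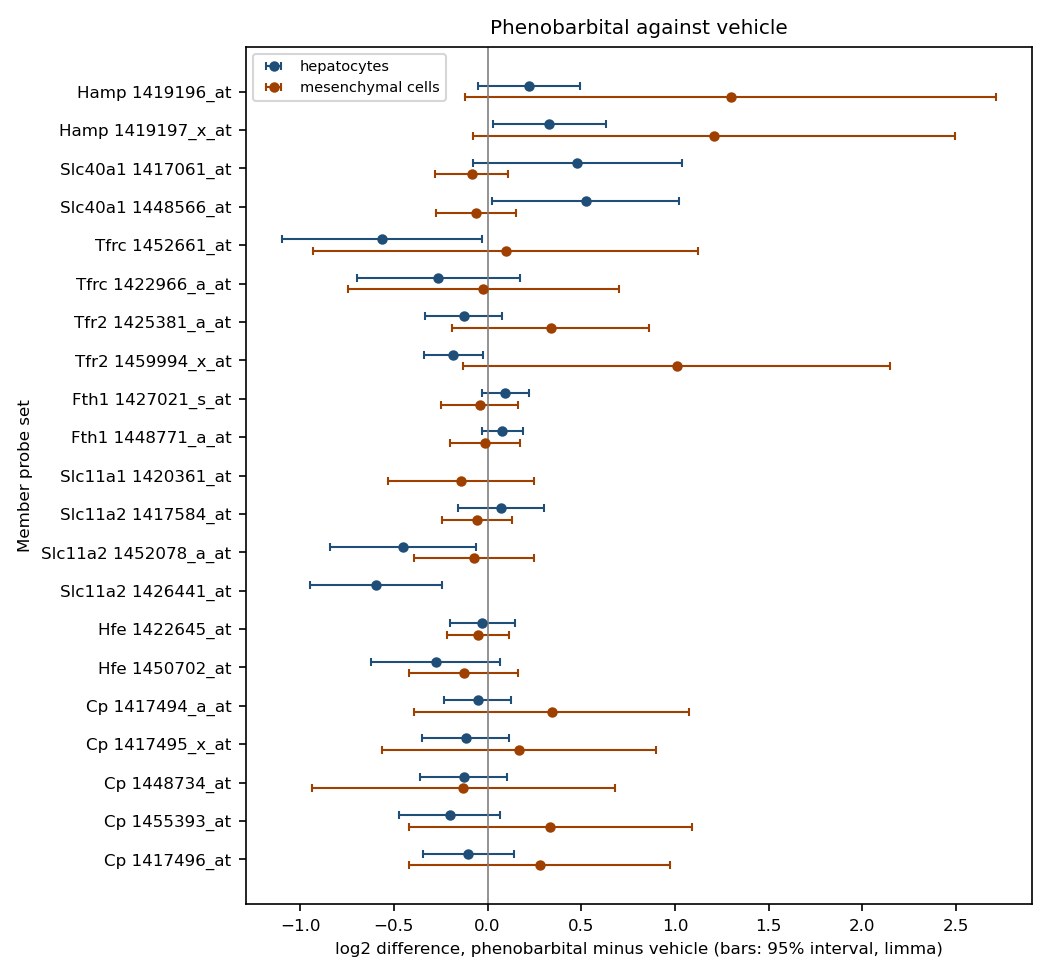
Difference in log2 expression, phenobarbital minus vehicle, for each tested member probe set in hepatocytes and in mesenchymal cells, with 95% confidence intervals from limma. No probe set was called in either population, and the widest intervals are those of Hamp, Tfr2 and Tfrc in mesenchymal cells.

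The phenobarbital difference was also compared between the populations. None of the 21 tested members was called in limma, and 0% of all 15432 tested probe sets were, with 772 of all and 3 members at an unadjusted p under 0.05. Among those 3 was Slc11a2 on 1426441_at, from which nothing is read here because its mesenchymal arrays all lay under the filter percentile. The others, as hepatocyte minus mesenchymal difference, were Tfr2 on 1459994_x_at at -1.19 (SE 0.52, limma adjusted p = 0.958) and Slc40a1 on 1448566_at at 0.59 (SE 0.26, limma adjusted p = 0.958). On that Tfr2 probe set a mesenchymal array of each treatment did not exceed the filter percentile. Without both vehicle samples numbered 1 the Tfr2 and Slc40a1 values were -0.78 and 0.25, again not called. The median over member probe sets was -0.29, against -0.01 over all probe sets, but with 1 probe set per gene it was 0.01 and 0 of 9 genes had an unadjusted p under 0.05 in limma.

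The vehicle samples numbered 1 deviated in the same direction in both populations for some members and in opposite directions for others. Tfrc on 1452661_at was 0.68 above the mean of the other hepatocyte vehicle arrays and 1.43 above that of the mesenchymal ones. Hamp on 1419196_at was -0.41 and -1.54 relative to them. Slc40a1 on 1417061_at differed, at -0.82 in hepatocytes and 0.19 in mesenchymal cells. The labels do not say what set these samples apart.

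Other genes of the pathway were grouped by role, with 1 probe set per gene. Of 18 tested regulators of hepcidin, 12 were higher and 5 lower in mesenchymal cells of vehicle mice, with a median difference of 1.03, read against the 43.2% and 38.9% of all probe sets given above. The ligands Bmp2 and Bmp6, which endothelium supplies, were higher, as were the inhibitory Smad6 and the interleukin 6 co-receptor Il6st (4.13). For the first 3 every vehicle hepatocyte array lay under the filter percentile, and taking those arrays at that percentile the gaps of the ligands were at least 85.7-fold and 11.9-fold. Lower were the transcription factors Atoh8, by at least 1.28-fold on the same basis, and Cebpa (-0.86), the hemojuvelin-binding receptor Neo1 (-1.04) and the activin receptor Acvr2a (-0.60). In phenobarbital mice 12 were again higher and 5 lower.

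Of 15 tested genes of cellular iron handling, 7 were higher and 8 lower in vehicle mesenchymal cells, with a median of -0.78, or -0.61 with genes under the filter percentile in a group set to it, read against the same shares of all probe sets. Heph, the membrane ferroxidase hephaestin (at least 2.65-fold against the filter percentile), the zinc and iron importer Slc39a8 (2.20), the ferritin autophagy receptor Ncoa4 (1.15) and the mitochondrial iron importer Slc25a37 (0.79) were higher. Hamp2 (-4.60), the siderophore-binding protein Lcn2 (-4.24), the importer of non-transferrin iron Slc39a14 (-3.67) and the metalloreductase Steap4 (-1.95) were lower. The probe set standing for Hamp2 may take signal from Hamp. In phenobarbital mice 7 were higher and 7 lower.

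Of 14 tested genes of haem-iron recycling, 9 were higher and 5 lower in vehicle mice, or 64.3% and 35.7% against 43.2% and 38.9% of all, with a median of 0.99. The haemoglobin scavenger receptor Cd163 (at least 81.0-fold against the filter percentile), the haem-degrading enzyme Hmox1 (4.21), the red pulp and Kupffer macrophage factor Spic (at least 10.1-fold) and biliverdin reductase Blvra (1.61) were higher. The plasma proteins haptoglobin, Hp (-4.32), and haemopexin, Hpx (-3.19), were lower, as were the haem and folate transporter Slc46a1 (-1.60) and the exporter Abcg2 (-1.26). The counts in phenobarbital mice were again 9 and 5.

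**Figure D5:**
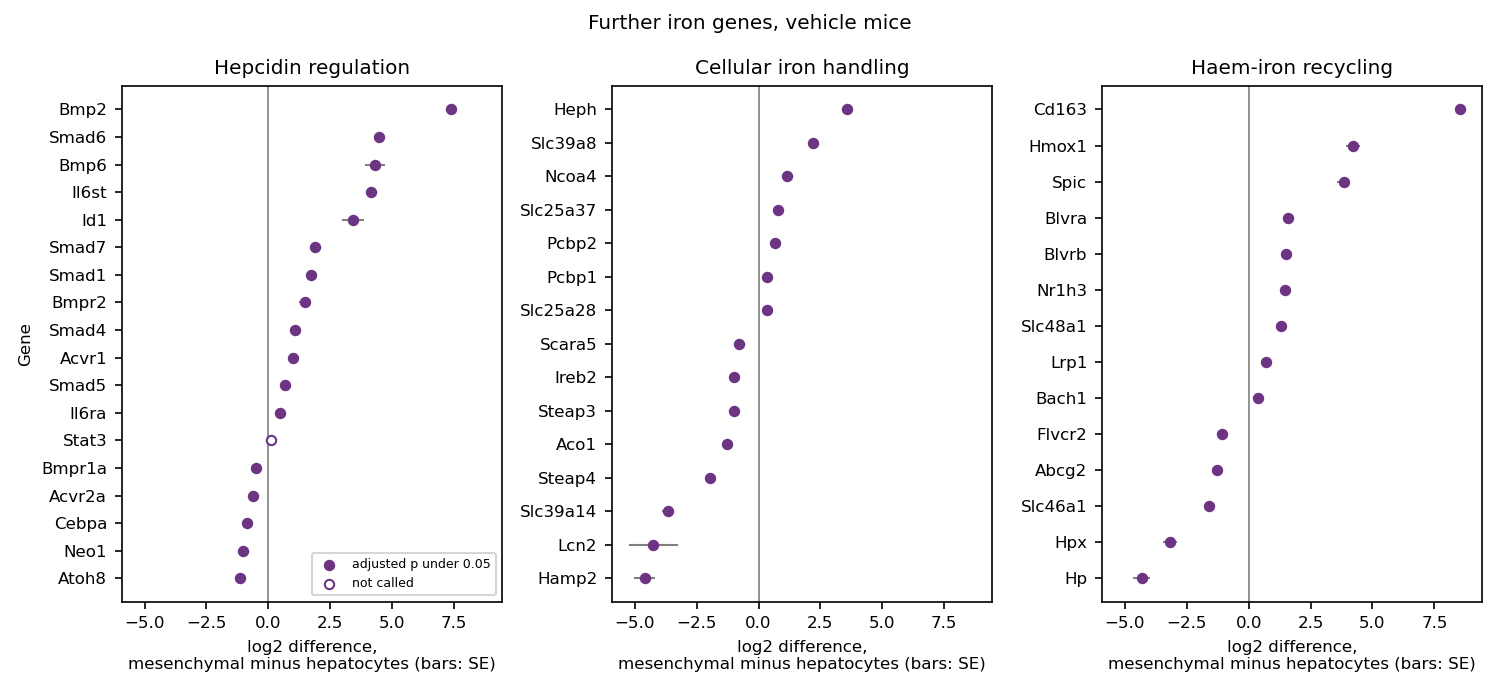
Difference in log2 expression, mesenchymal minus hepatocyte in vehicle mice, for the tested genes of 3 lists: hepcidin regulation, cellular iron handling and haem-iron recycling, each point 1 gene. Genes such as Bmp2, Cd163 and Heph, whose hepatocyte arrays all lie under the filter percentile, are drawn at their measured difference, which is not exact; Hamp2 lies at -4.60.

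None of these pathway genes was called under phenobarbital in hepatocytes, against 0.0584% of all. In the hepcidin list 7 of 14 had an unadjusted p under 0.05, or 50%, and 6 did not overlap between groups, or 42.9%, against 8.03% and 14.8% of all. Those with an unadjusted p under 0.05 included Id1, a BMP target, at 1.03 (SE 0.41, limma adjusted p = 0.612) and Atoh8 at 0.62 (SE 0.22, limma adjusted p = 0.56). On the lower side stood the BMP receptor Acvr1 at -0.36 (SE 0.10, limma adjusted p = 0.478) and Stat3 at -0.29 (SE 0.12, limma adjusted p = 0.614). The groups overlapped for Id1 and Stat3 and did not overlap for Atoh8 and Acvr1. Id1 on vehicle hepatocyte array 1 read 6.49, the lowest of the 6 hepatocyte arrays, and without that array Id1 stood at 0.59 and Stat3 at -0.17. Without it 5 of the 14 had an unadjusted p under 0.05, or 35.7% against 7.45% of all, and 6 did not overlap, or 42.9% against 25.5%. The hepcidin list did not stand alone in this. Without that array the same 2 shares were 33.3% and 41.7% for haem-iron recycling, and 14.3% and 7.14% for cellular iron handling. With all arrays, 14.3% of cellular iron handling and 16.7% of haem-iron recycling had an unadjusted p under 0.05, and 0% and 25% did not overlap. In these lists the Hamp2 probe set, which may also read Hamp, stood at 0.90 (SE 0.29, limma adjusted p = 0.524). Lcn2 stood at -2.28 (SE 0.86, limma adjusted p = 0.592). The groups overlapped for both. The haemopexin receptor Lrp1 stood at -0.37 (limma adjusted p = 0.391) and Hp at -0.31 (limma adjusted p = 0.491). In mesenchymal cells 0 genes of the 3 lists were called in limma or had an unadjusted p under 0.05. For the phenobarbital difference compared between the populations, none was called either. An unadjusted p under 0.05 was found for 22.2% of the hepcidin list and 0% of the others, against 5% of all. As hepatocyte minus mesenchymal difference, Cebpa stood at 0.49, Smad6 at 0.46 and Acvr1 at -0.47 (limma adjusted p = 0.958 for each). Smad6 lay under the filter percentile on every vehicle hepatocyte array.

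The genes whose profile lay nearest to that of Hamp over the 6 hepatocyte arrays were Trim43a, Fstl3 and Ap3m1 among 8116 compared, with root-mean-square differences of mean-centred log2 levels of 0.0318, 0.0438 and 0.0457. Over all 12 arrays those nearest to Slc40a1 were Rnf145, Fes and Cd200r1 among 9030, at 0.197, 0.209 and 0.216. These are descriptions over few arrays, and in the second case the distance is governed by the gap between the populations.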

How the data were processed

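Labelling followed an Affymetrix 3′ IVT protocol with an array for each sample, per the labels. The deposited values are log2 expression from RMA, which the submitters' processing notes name (version and scan date not given in the sources used here). Array medians differed between the populations, so whether all arrays were normalized together is unknown, and small population differences depend on scaling. The platform annotation gave 1 gene symbol for 20380 probe sets, several for 691 and none for 1555; the latter kinds named no gene.

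The labels gave groups and replicate numbers. Each comparison was fitted over all probe sets that passed the filter with limma 3.58.1 in R 4.3.3 (lmFit, eBayes with an intensity trend) and Benjamini-Hochberg adjustment. Treatment within a population used its 6 arrays, and other comparisons used all 12. The fit was tested on simulated data. No arrays were identical. The number of arrays limits precision.

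Samples of the same number were compared through the correlation of their deviations from the group means. Between hepatocytes and mesenchymal cells of vehicle mice these were 0.192, 0.159 and 0.148. They ran from -0.227 to 0.167 in the other pairs of groups. Samples of different numbers were not compared in this way, so the values cannot decide whether equal numbers mark paired samples. The fits had no replicate block, which was tried as an alternative.

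The members and lists were chosen with earlier results of these data known. Members were all named. Named pathway genes, 1 probe set per gene with the highest mean, were up to 4 called genes of each sign per list between populations, and otherwise up to 2 of each sign with unadjusted p under 0.05. Where every array of a group lay under the filter percentile, a fold is given as a lower bound, with those arrays set to that percentile, a choice made after seeing the data. Alternatives changed the filter, scaling, probe set rule, trend, block and arrays. Promoter sequences came from RefSeq (GRCm38.p6). The check genes and single arrays quoted beside results were chosen after their values were seen.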

Additional observations from a re-analysis of the deposited data

How the results depend on the processing

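No member was called for phenobarbital under any alternative run. The lowest limma adjusted p over all member probe sets and alternatives was 0.238 in hepatocytes, 0.913 in mesenchymal cells and 0.626 for the difference between the populations. The count of all probe sets called in hepatocytes, 8, was 4 with 1 probe set per gene, 5 without the intensity trend, 13 with all 12 arrays in 1 fit and 1 to 9 with an array left out, the lowest without phenobarbital hepatocyte array 1. For the difference of effects it was 0, and up to 3 with an array left out. Between the populations, 17 member probe sets were called in vehicle mice and 15 in phenobarbital mice. With 1 probe set per gene these were 7 and 6, by construction of fewer probe sets, and with an array left out they were 15 to 17 and 15. Fth1 on 1427021_s_at in phenobarbital mice turned from 0.01 to -0.22 (limma adjusted p = 0.0173) with arrays centred on the median, a shift of the size of the difference between array medians. Fth1 and Tfrc were the members whose other calls changed with scaling or with an array left out, beside Slc11a2 on 1417584_at, as given above. With the replicate block the counts of called members were 17 in vehicle mice, 15 in phenobarbital mice and 0 for each phenobarbital comparison, and no member's call changed. Of the pathway genes, Il6ra, Slc25a28, Pcbp1 and Bach1 lost their vehicle call under another scaling, which was looked at after seeing the data, and no gene named above for a population difference did. With 3 arrays per group, effects with wide intervals, such as Hamp in mesenchymal cells, are poorly bounded, and probe sets near either end of the scale give compressed differences.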
